A study of Mus musculus with 6 samples.

Results

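Hepatokines are hormones that the liver secretes into the blood and that act on appetite, insulin action and lipid use in other organs. The transcripts of 9 such hormones, Fgf21, Gdf15, Leap2, Ahsg, Fetub, Lect2, Angptl4, Angptl6 and Enho, were followed in hepatocytes with and without Xbp1. They were taken by gene symbol from a deposited table of 54532 genes, and all 9 were found and passed the filter on low counts that left 14873 genes for testing. As secreted proteins, hepatokines enter the endoplasmic reticulum (ER), and XBP1, a factor that drives genes in the unfolded protein response, sets the capacity of that compartment. FGF21 and GDF15 are known as stress-induced hormones whose genes respond to ATF4 and CHOP, the transcription factors of another branch of that response. FGF21 and ANGPTL4 are also known targets of PPARα, the fatty acid sensor of the fasting liver.

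The study compared primary hepatocytes from C57BL/6 mice aged 32 to 34 weeks that had eaten a high-fat diet (HFD) for 26 weeks. The 3 XCON libraries came from Xbp1FL/FL mice, in which both alleles carry loxP sites, and the 3 XCKO libraries from Xbp1ΔHep mice, in which the gene was deleted in hepatocytes. The sources used here name neither the Cre line nor the sex of the mice, and do not say whether animals were pooled. No untreated or normal-diet group was analysed here, so every value below is from mice on the same diet.

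Total counts ran from 23919355 to 27240079 per library. Xbp1 itself fell from 171 to 319 CPM (counts scaled to a common library size by TMM) in XCON to 39.3 to 67.4 CPM in XCKO, a log2 fold change of −2.24 ± 0.29 (SE; adjusted p = 0.00837). Transcripts of hepatocyte markers were abundant in every library, with a summed level of 68800 to 95800 CPM in XCON and 96700 to 126000 CPM in XCKO over 12 markers. Of these 12 markers 1 was called higher and 11 lay above 0 in log2 fold change. At an unadjusted p under 0.05 in edgeR's test 6 were higher, a threshold whose share over all genes was not taken, and DESeq2 called 5 higher. Libraries also held transcripts of other cells. The sum of 12 macrophage markers was 1420 to 2780 CPM in XCON and 502 to 1410 CPM in XCKO, and that of 12 stellate cell markers was 377 to 722 and 170 to 414 CPM. In edgeR's test 1 of the macrophage and 2 of the stellate cell markers were called lower, and DESeq2 called 5 lower in each list. Of all 14873 genes tested, edgeR called 5.21% higher and 4.05% lower, and DESeq2 called 1415 higher and 1238 lower. The mitochondrial share of counts was 22.8% for XCON 1 and 8.99% to 13.1% for the others, while the globin level was 329 CPM for XCKO 1, 825 CPM for XCKO 3 and at most 18.6 CPM for the rest. In such bulk samples fewer cells of a type and less RNA per cell cannot be told apart.

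Among the 9 hepatokines, Leap2 rose in XCKO, none fell and 8 did not pass an adjusted p of 0.05 (edgeR's quasi-likelihood test, Benjamini-Hochberg adjustment over all genes tested). In edgeR's test 5.21% of all genes were called higher and 4.05% lower, 9.27% in all, so 1 call among 9 members, 11.1%, is near the background share. DESeq2 called 2 members higher and 1 lower (Gdf15), and of all 14873 genes it called 1415 higher and 1238 lower. At an unadjusted p under 0.05 there were 2 members higher (Leap2 and Ahsg) and 2 lower (Gdf15 and Enho). The share of all genes at that unadjusted threshold was not taken, so no excess can be read from this count. Scaling sets the split of all calls: 56.2% of them were higher with TMM, 13.8% with library totals alone and 3.98% with scaling by hepatocyte markers. The median log2 fold change of the 9 was 0.11, against −0.05 over all genes tested. Their groups did not overlap for 4 of 9 members, Leap2 and Ahsg higher and Gdf15 and Enho lower in XCKO, against 35.7% of all genes tested.

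**Figure D1:**
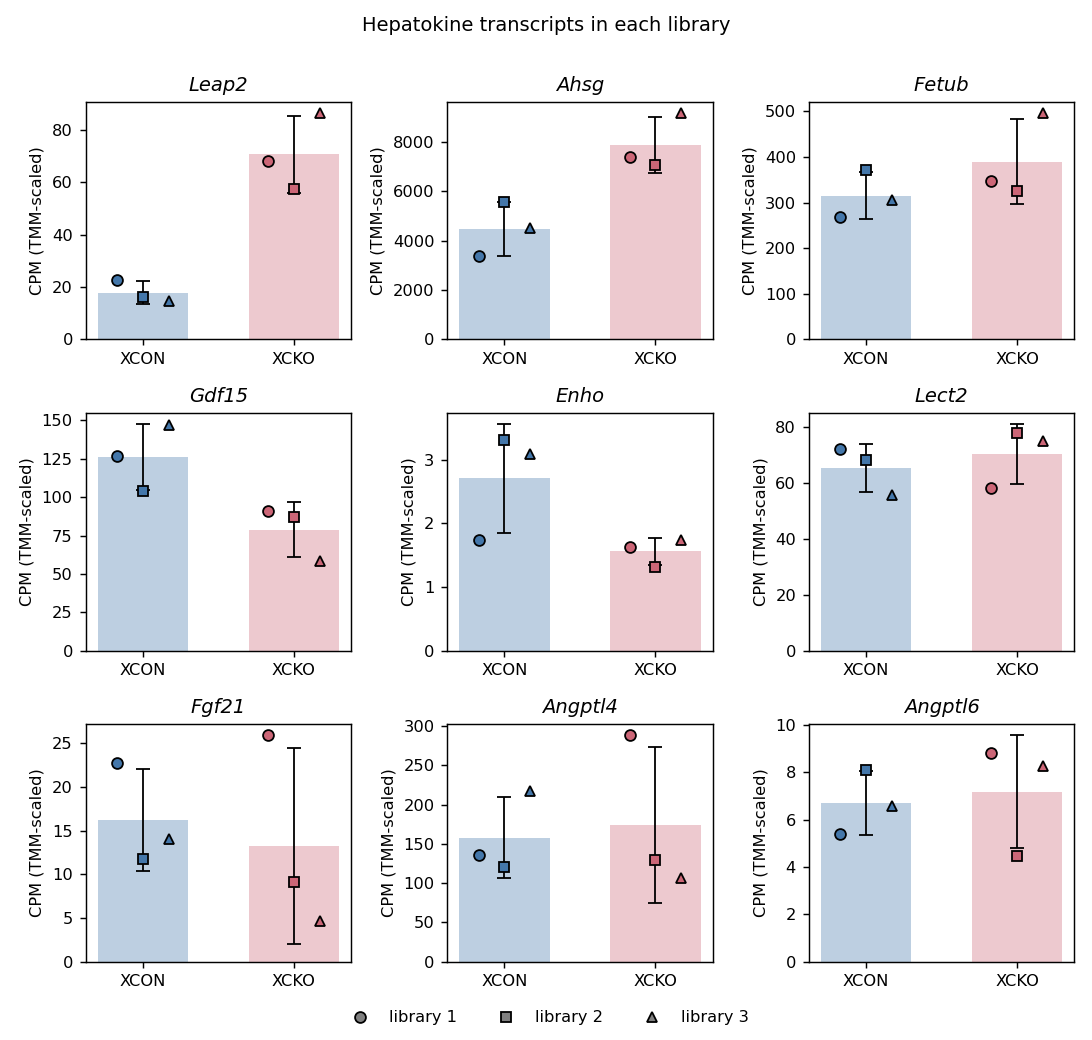
TMM-scaled CPM of each hepatokine transcript (vertical axes, from 0, a scale for each panel) in the 3 XCON and 3 XCKO libraries. Bars are group means, error bars SDs over 3 libraries, and symbols mark the library number, which does not pair the groups. The XCKO values of Leap2 lie between 57.4 and 86.5 CPM, all above the XCON values of 14.6 to 22.9 CPM.

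Levels per transcript length differed by a wide margin among the hormones. Ahsg encodes fetuin-A, an abundant serum glycoprotein that binds calcium phosphate and inhibits the insulin receptor. Its FPKM (the deposited read count over transcript length and library size) was 1990 ± 469 in XCON and 3580 ± 579 in XCKO (SD, n = 3), and by its mean over all 6 libraries it ranked 20 of the genes tested. Ahsg alone took 0.367% to 0.778% of all counts in a library, and the 9 genes together took 0.438% to 0.849%. Fetub, which encodes the related protein fetuin-B, came next with 156 ± 24.4 FPKM in XCON and 199 ± 51 FPKM in XCKO (SD, n = 3). Enho, the gene of the peptide adropin, was the lowest, with 2.07 ± 0.653 and 1.23 ± 0.189 FPKM (SD, n = 3), against a median of 2.66 FPKM over all genes tested.

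In XCON the order by FPKM was Ahsg, Fetub, Lect2, Gdf15, Angptl4, Leap2, Fgf21, Angptl6 and Enho. The ranges of Lect2 (69.1 ± 8.05 FPKM) and Gdf15 (66.4 ± 12.6 FPKM) overlapped there, as did those of Gdf15 and Angptl4 (47 ± 16.3 FPKM) and of Angptl4 and Leap2 (32.8 ± 7.87 FPKM; SD, n = 3 for each). In XCKO Leap2 was the third, at 133 ± 30.1 FPKM, above Lect2 at 76.4 ± 11.4, Angptl4 at 53.1 ± 30.2 and Gdf15 at 42.5 ± 9.27 FPKM (SD, n = 3). The ranges of Leap2 and Fetub overlapped in XCKO and did not in XCON. Gdf15 moved from the fourth to the sixth place, with ranges that overlapped those of Angptl4 in both groups.

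**Figure D2:**
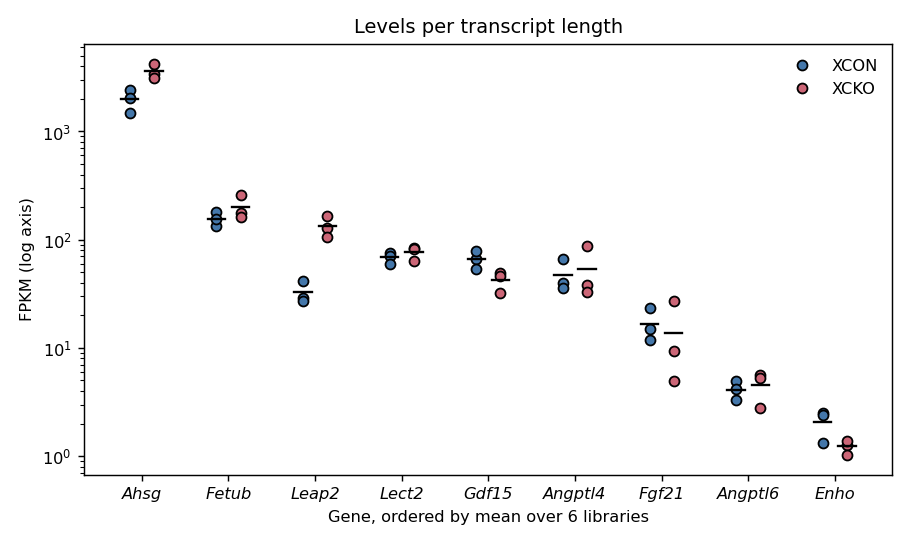
Deposited FPKM of each hepatokine transcript (vertical log axis) in every library, with genes ordered by their mean over 6 libraries, points for libraries and short lines for group means. Levels span from 4240 FPKM for Ahsg in XCKO 3 to 1.02 FPKM for Enho in XCKO 2, and Leap2 lies from 27.3 to 41.8 FPKM in XCON and from 106 to 166 FPKM in XCKO.

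Leap2 encodes liver-expressed antimicrobial peptide 2, which is known to block the ghrelin receptor and to lower the response to ghrelin, the hunger hormone of the stomach. The gene (ENSMUSG00000036216) lies on mm10 chromosome 11, 53422181 to 53423170, on the minus strand. It had 595, 441 and 432 counts in XCON 1, 2 and 3, which were 22.9, 16.2 and 14.6 CPM, and 1687, 1480 and 2000 counts in XCKO 1, 2 and 3, which were 68.3, 57.4 and 86.5 CPM. Every XCKO library lay above every XCON library, and the spread within a group was at most 1.57-fold. The mean rose from 17.9 ± 4.41 to 70.7 ± 14.7 CPM (SD, n = 3), a 3.95-fold difference with a 95% interval of 2.79 to 5.6. On the log2 scale the difference was 1.98 ± 0.22 (SE; adjusted p = 0.00593). The authors' deposited table, in which 10.2% of 24709 genes have an adjusted p under 0.05, gives 2.03 and 2.3e-13 for Leap2.

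Leap2 passed in each of the 6 fits that left out 1 library, with log2 fold changes of 1.83 to 2.20 and adjusted p-values of 0.00317 to 0.03. At 531 bases Leap2 is a short transcript, so the fit was repeated for length. With the length trend of each library removed, its log2 fold change was 1.70 (adjusted p = 0.00623). Scaled by the mean of the hepatocyte markers in place of TMM, which moved the median of all genes by −0.48, it was 1.43 (adjusted p = 1.68e-05), or 1.96 above that median. The part of the hepatocyte markers in the Leap2 difference was otherwise not tested.

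No annotated gene overlaps Leap2. On one side Aff4, which encodes a subunit of the super elongation complex, lies 351 bases away on the other strand, and it had 89.4 ± 17.2 CPM in XCON and 82.2 ± 11 CPM in XCKO (SD, n = 3, adjusted p = 0.688). On the other side Uqcrq, the gene of a small subunit of respiratory complex III, lies 4752 bases away on the same strand. Uqcrq was at 118 ± 20.1 CPM in XCON and rose to 258 ± 30.6 CPM in XCKO (SD, n = 3; adjusted p = 0.0147). Centred log2 CPM over the 6 libraries was also compared with that of 9479 genes. These had a mean of at least 5 CPM and no Gm or Rik symbol. The profiles closest to that of Leap2 were those of Tfrc, Clstn3 and Ndufa2, with Euclidean distances of 0.464, 0.562 and 0.59. Tfrc, the gene of the transferrin receptor, had 65.5, 62 and 49.1 CPM in XCON 1, 2 and 3 and 210, 144 and 282 CPM in XCKO 1, 2 and 3. In Tfrc as in Leap2, XCON 3 was the lowest library and XCKO 3 the highest. That likeness is not a separate result, since Tfrc was picked by its distance to Leap2 over these same 6 libraries.

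The ghrelin receptor gene Ghsr and Mboat4, whose product activates ghrelin by acylation, had 0 reads in all 6 libraries, which allows up to 0.101 to 0.13 CPM per library (3 counts, counting error only). Hamp encodes hepcidin, the iron hormone that was first described as LEAP-1. It had 241, 749 and 760 CPM in XCON 1, 2 and 3 and 58.3, 344 and 19.7 CPM in XCKO 1, 2 and 3, so the groups overlapped. On the log2 scale Hamp differed by −2.05 ± 1.13 (SE; adjusted p = 0.288).

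Ahsg and Fetub are neighbours in one cluster of cystatin-related genes. Ahsg (ENSMUSG00000022868) lies on mm10 chromosome 16, 22891277 to 22899449, plus strand, and Fetub (ENSMUSG00000022871) lies 18885 bases further on, 22918334 to 22939778, on the same strand. Ahsg had 3380, 5560 and 4520 CPM in XCON 1, 2 and 3 and 7370, 7060 and 9160 CPM in XCKO 1, 2 and 3. The groups did not overlap, and XCON 1 was the lowest library. The difference was 1.75-fold with an unadjusted 95% interval of 1.19 to 2.58, and it did not pass over all genes (adjusted p = 0.0698). The authors' deposited table gives a log2 fold change of 0.85 and an adjusted p of 0.00297 for Ahsg. The hepatocyte marker mean differed by 0.47 on the log2 scale (11.13 in XCON and 11.6 in XCKO), and its part in the Ahsg difference was not tested. Scaled by those markers Ahsg had a log2 fold change of 0.36 (adjusted p = 0.226), or 0.89 above the median of all genes under that scaling. The antisense gene Gm30505 shares 3110 bases with Ahsg, but only 334 reads were counted to it over all libraries.

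Fetuin-B, the product of Fetub, inhibits zinc proteases of the astacin family. Fetub had 269, 371 and 306 CPM in XCON 1, 2 and 3 and 347, 326 and 496 CPM in XCKO 1, 2 and 3. The groups overlapped, and XCKO 3 was the highest library, as for Ahsg. The fold difference was 1.24 with a 95% interval of 0.876 to 1.74 (adjusted p = 0.382 in edgeR's test). Of the 5 tested genes of the cluster, which also holds Hrg, Kng1 and Kng2, none passed in edgeR's test and DESeq2 called 2 higher. Of all 14873 genes tested, edgeR called 5.21% higher and DESeq2 called 1415 higher. In the cluster 2 genes (Ahsg and Hrg) had an unadjusted p under 0.05, a threshold whose share over all genes was not taken. Hrg, the gene of histidine-rich glycoprotein next to Fetub, had 662 ± 120 CPM in XCON and 1010 ± 80.4 CPM in XCKO (SD, n = 3, adjusted p = 0.0822). The kininogen genes Kng1 and Kng2, which encode the precursors of bradykinin, had log2 fold changes of −0.03 ± 0.19 and 0.00 ± 0.17 (SE).

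Gdf15 encodes a stress-induced hormone of the TGF-β superfamily that lowers food intake through the receptor GFRAL in the hindbrain. The gene (ENSMUSG00000038508) lies on mm10 chromosome 8, 70629393 to 70632456, minus strand. It had 127, 104 and 147 CPM in XCON 1, 2 and 3 and 91.2, 87.3 and 58.1 CPM in XCKO 1, 2 and 3. All XCKO libraries lay below all XCON libraries, and XCKO 3 was the lowest. On the log2 scale Gdf15 differed by −0.67 ± 0.21 (SE; unadjusted 95% interval −1.16 to −0.19; adjusted p = 0.0776). The authors' deposited table gives −0.64 and 0.0388, and DESeq2 gave an adjusted p of 0.0331. The call therefore depended on the test and the scaling, whereas the sign was negative under all 18 alternative settings.

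Macrophages also make Gdf15. All 12 macrophage markers were tested and lay below 0 in log2 fold change, with 1 past edgeR's test and 5 called lower by DESeq2. Of all 14873 genes tested, edgeR called 4.05% lower and DESeq2 called 1238 lower. None of the macrophage markers was at 0 in any library, and their mean log2 CPM was 6.41 in XCON and 5.36 in XCKO. XCKO 2 had the lowest macrophage marker sum, 502 CPM, and 87.3 CPM of Gdf15, whereas XCKO 3 had the lowest Gdf15 with a marker sum of 1410 CPM. The part of other cells in the Gdf15 difference was not tested. Without XCKO 3 its log2 fold change was −0.48. Gfral had 0 reads in all libraries, and its co-receptor gene Ret had 62 reads in total and was not tested.

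Fgf21 encodes the fasting and stress hormone that acts through β-Klotho and FGF receptor 1 on adipose tissue and brain. The gene (ENSMUSG00000030827) lies on mm10 chromosome 7, 45613886 to 45615490, minus strand. It had 593, 321 and 418 counts in XCON 1, 2 and 3, which were 22.8, 11.8 and 14.1 CPM, and 639, 236 and 107 counts in XCKO 1, 2 and 3, which were 25.9, 9.16 and 4.63 CPM. XCKO 1 was the highest and XCKO 3 the lowest of all 6 libraries, so the XCKO group spanned the whole XCON range. The log2 fold change was −0.30 ± 0.61 (SE; adjusted p = 0.78), and the 95% interval of the fold ran from 0.293 to 2.27. Without XCKO 3 it was 0.13, without XCON 1 it was 0.03 and without XCKO 1 it was −1.22. The within-group SD of Fgf21 on the log2 scale, 0.94, was larger than that of 95.6% of the genes tested, whose median was 0.28.

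The sequences before the starts of Fgf21 and Gdf15 are shown because both genes are known to answer to stress transcription factors that bind short motifs there. They are the 250 bases upstream of the RefSeq start on GRCm38.p6, read 5′ to 3′ on the gene's strand. For Fgf21 this is chr7:45615491-45615740 on the minus strand, and for Gdf15 chr8:70632457-70632706 on the minus strand. Capitals mark matches on either strand to TGATGNAAT (a C/EBP-ATF composite element), ACGTG (the core of XBP1 and E-box elements), TGACGTG (the core of the unfolded protein response element), TGACG (a cAMP response half-site, which TGACGTG contains), the ER stress element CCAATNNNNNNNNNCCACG, or AGGTCA repeated after 1 base (a PPAR element).
Fgf21: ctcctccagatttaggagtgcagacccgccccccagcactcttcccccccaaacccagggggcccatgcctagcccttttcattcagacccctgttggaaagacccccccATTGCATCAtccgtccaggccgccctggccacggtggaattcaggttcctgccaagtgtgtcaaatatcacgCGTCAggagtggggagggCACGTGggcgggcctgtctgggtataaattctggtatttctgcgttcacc
Gdf15: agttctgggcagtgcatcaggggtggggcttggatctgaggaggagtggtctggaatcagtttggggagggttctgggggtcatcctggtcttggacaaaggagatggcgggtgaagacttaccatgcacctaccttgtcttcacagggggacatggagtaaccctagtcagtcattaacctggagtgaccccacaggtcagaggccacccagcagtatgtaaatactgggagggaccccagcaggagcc

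The Fgf21 window holds the C/EBP-ATF element on the opposite strand at −140 from the start, a TGACG match at −68 and an ACGTG match on both strands at −50, where they form the palindrome CACGTG. It holds no TGACGTG, ER stress element or PPAR element. The Gdf15 window shown holds none of the motifs, and a second RefSeq window of Gdf15, further into the gene, holds the same palindrome at −83. Over all 32851 windows of 300 bases, 0.965% held the C/EBP-ATF element, 19.6% ACGTG, 20.8% TGACG, 2.01% TGACGTG, 0.119% the ER stress element and 0.0396% the PPAR element. Windows were given for 6 of the 9 members, and those of Ahsg, Angptl6 and Lect2 held no match and 1 of the windows of Fetub held TGACG. Leap2, Angptl4 and Enho had no window. These matches are descriptions of letters and were not tested for binding.

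Of 19 tested targets of ATF4 and CHOP, 1 was higher, 2 were lower and 16 did not pass, with a median log2 fold change of −0.35. The shares over all genes tested were 5.21% higher and 4.05% lower. Eif4ebp1, which encodes a repressor of cap-dependent translation, rose by 0.74. The cystine transporter gene Slc7a11 fell by 1.73 on the log2 scale. The transcription factor gene Atf3 fell from 26.7 ± 13.4 to 7.8 ± 2.83 CPM (SD, n = 3). The call of Eif4ebp1 was lost without XCKO 3 (adjusted p = 0.0526), that of Slc7a11 without any library but XCON 3 (up to 0.12) and that of Atf3 without any library but XCON 2 (up to 0.11). Scaling also ended the call of Eif4ebp1, at 0.48 (adjusted p = 0.0527) with library totals and 0.26 (0.508) with hepatocyte markers. Atf3 also lost its call with no filter on low counts (0.18), with median-of-ratios size factors (0.0505), with limma-voom (0.0531) and with limma on FPKM (0.0564 and 0.0577), and Slc7a11 with limma-voom (0.0542) and with the length trend removed (0.0737). Atf4 had 58 ± 4.78 CPM in XCON and 57.4 ± 7.54 CPM in XCKO (SD, n = 3, adjusted p = 0.959), and Ddit3, the gene of CHOP, had 14.5 ± 8.42 and 11.4 ± 6.55 CPM (SD, n = 3, adjusted p = 0.673).

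**Figure D3:**
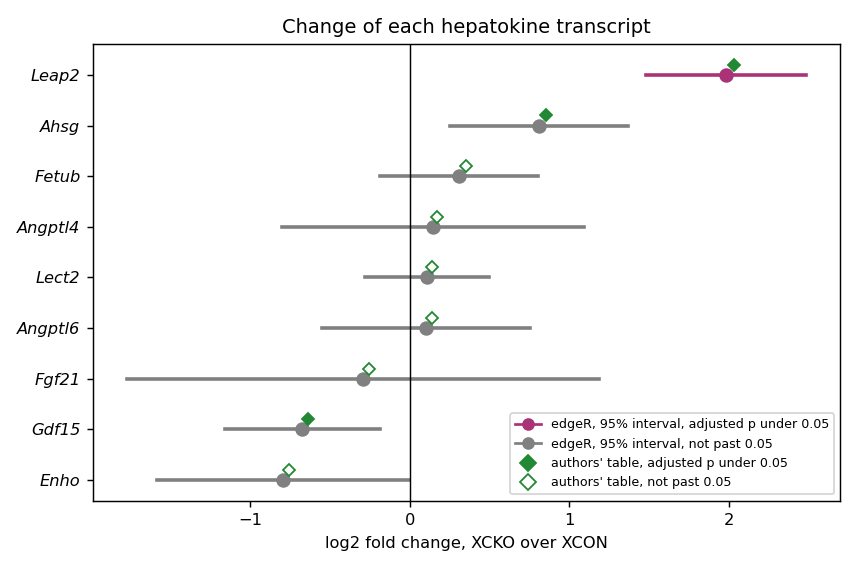
log2 fold change of each hepatokine transcript (horizontal axis, XCKO over XCON), with circles and lines for edgeR's estimate and unadjusted 95% interval (purple past an adjusted p of 0.05, grey otherwise) and diamonds for the authors' deposited table, filled where its adjusted p is under 0.05. In edgeR's test Leap2 alone passes, at 1.98, whereas the authors' table also has Ahsg at 0.85 and Gdf15 at −0.64 past 0.05.

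Angptl4 encodes angiopoietin-like 4, a fasting-induced inhibitor of lipoprotein lipase. The gene (ENSMUSG00000002289) lies on mm10 chromosome 17, 33773750 to 33781575, minus strand. It had 136, 121 and 217 CPM in XCON 1, 2 and 3 and 288, 129 and 106 CPM in XCKO 1, 2 and 3. As with Fgf21, XCKO 1 was the highest and XCKO 3 the lowest of all libraries, and the groups overlapped. The fold difference was 1.1 with a 95% interval of 0.574 to 2.13 (adjusted p = 0.838 in edgeR's test). Without XCKO 1 the log2 fold change was −0.42 and without XCON 2 it was −0.01. Adipocytes are another source of Angptl4. Of 10 adipocyte markers 6 were tested, all above 0 in log2 fold change. Of these 6, 1 (Cfd) was called higher in edgeR's test, against 5.21% of all genes tested. The summed level of the 6 was 1600 to 2150 CPM in XCON and 1890 to 2740 CPM in XCKO. Most of it came from Pck1, which hepatocytes also express. The defining markers were at or near 0, with 4 reads of Adipoq, 1 of Plin1 and 0 of Lep over all 6 libraries.

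The targets of PPARα besides Fgf21 and Angptl4 included 7 of 15 that rose, 0 that fell and 8 that did not pass, with a median log2 fold change of 0.63. In edgeR's test 5.21% of all genes tested were called higher and 4.05% lower. DESeq2 called 8 of the list higher and 1 lower, and of all 14873 genes 1415 higher and 1238 lower. At an unadjusted p under 0.05 there were 9 of the list higher and 2 lower, a threshold whose share over all genes was not taken. The fatty acid binding protein gene Fabp1 rose from 458 ± 32.5 to 1130 ± 136 CPM and the fatty acid hydroxylase gene Cyp4a14 from 169 ± 65.3 to 604 ± 60.8 CPM (SD, n = 3), and both passed whichever library was left out. Cyp4a14 had 242, 115 and 150 CPM in XCON 1, 2 and 3 and 666, 545 and 603 CPM in XCKO 1, 2 and 3, so its XCKO libraries lay close together where those of Fgf21 and Angptl4 were far apart. Others that rose were Acaa1b (1.08), Cyp4a10 (1.33) and Slc25a20 (0.69). Acaa1b kept its call only without XCON 1 or XCKO 2 (up to 0.065 otherwise), Cyp4a10 only without XCON 1 (up to 0.0808 otherwise), and Slc25a20 lost it without any of the 6 (up to 0.0782). The hepatocyte marker mean, higher by 0.47 on the log2 scale in XCKO, moved in the same direction as this list. Scaled by those markers Fabp1 was at 0.81 (adjusted p = 0.00737) and Cyp4a10 at 0.74 (0.0306), whereas Acaa1b at 0.59 (0.0531) and Slc25a20 at 0.23 (0.539) lost their calls. With library totals Slc25a20 was at 0.43 (0.106). Pdk4, a fasting-induced PPARα target chosen here after its values were seen, had 71.2, 15.3 and 146 CPM in XCON 1, 2 and 3 and 15.3, 7.84 and 4.37 CPM in XCKO 1, 2 and 3 (adjusted p = 0.0972). It too was lowest in XCKO 3 and ran down from XCKO 1 over XCKO 2 to XCKO 3, as Fgf21 and Angptl4 did. The highest library of Pdk4 was XCON 3 and not XCKO 1.

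**Figure D4:**
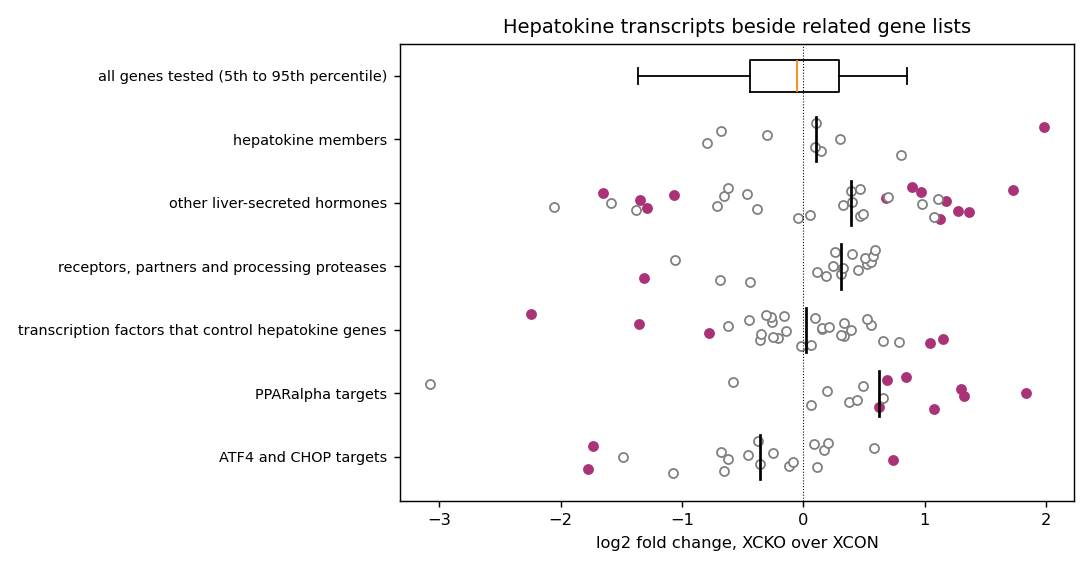
log2 fold changes (horizontal axis, XCKO over XCON) of the tested genes of each list, with filled points past an adjusted p of 0.05, a line at each list's median, and for all genes tested a box of the quartiles with whiskers from the 5th to the 95th percentile. The hepatokine transcripts have a median of 0.11 and 1 filled point, and the PPARα targets a median of 0.63 and 7 filled points.

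Angptl6 encodes another angiopoietin-like protein, known in mice as a circulating factor that counters obesity. The gene (ENSMUSG00000038742) lies on mm10 chromosome 9, 20873808 to 20879727, minus strand. It had 5.39, 8.1 and 6.59 CPM in XCON 1, 2 and 3 and 8.82, 4.46 and 8.26 CPM in XCKO 1, 2 and 3, from 115 to 221 counts. XCKO 2 was the lowest and XCKO 1 the highest library, and the groups overlapped. The fold difference was 1.07 with a 95% interval of 0.682 to 1.68 (adjusted p = 0.841). A230050P20Rik on the other strand shares 500 bases with Angptl6, had 122 ± 16.4 CPM in XCON and 61.4 ± 21.7 CPM in XCKO (SD, n = 3), and without strand its reads there cannot be told from those of Angptl6. Of all 14873 genes tested, edgeR called 4.05% lower and DESeq2 called 1238 lower, and the share at an unadjusted p under 0.05 was not taken. Of the 5 tested angiopoietin-like genes none passed in edgeR's test, 1 had an unadjusted p under 0.05, and DESeq2 called 1 lower. The first was Angptl2, with 10.7 ± 1.58 and 6.01 ± 2.04 CPM (SD, n = 3, adjusted p = 0.0767, 0.0475 without XCKO 1 and 0.0031 to 0.0457 with library totals, no filter, DESeq2 or hepatocyte marker scaling). Angptl8, whose product acts in the control of lipoprotein lipase after a meal, had 90.1 ± 89.3 CPM in XCON and 190 ± 80.4 CPM in XCKO (SD, n = 3, adjusted p = 0.389).

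Lect2 encodes leukocyte cell-derived chemotaxin 2, a hepatokine linked to insulin resistance of muscle. The gene (ENSMUSG00000021539) lies on mm10 chromosome 13, 56542464 to 56548502, minus strand. It had 72, 68.3 and 55.7 CPM in XCON 1, 2 and 3 and 58.1, 77.9 and 74.9 CPM in XCKO 1, 2 and 3. The groups overlapped, and the highest library exceeded the lowest by 1.4-fold, the narrowest range of the 9 transcripts. The fold difference was 1.08 with a 95% interval of 0.823 to 1.41 (adjusted p = 0.708).

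Enho encodes adropin, a small peptide linked to glucose and lipid use. The gene (ENSMUSG00000028445) lies on mm10 chromosome 4, 41638144 to 41640324, minus strand. It had only 45, 90 and 91 counts in XCON 1, 2 and 3, which were 1.73, 3.3 and 3.08 CPM, and 40, 34 and 40 counts in XCKO 1, 2 and 3, which were 1.62, 1.32 and 1.73 CPM. All XCKO libraries lay below all XCON libraries, but XCON 1 and XCKO 3 were equal to 3 digits, with exact Poisson 95% intervals, for counting error only, of 1.26 to 2.32 and 1.24 to 2.35 CPM. On the log2 scale Enho differed by −0.80 ± 0.35 (SE; unadjusted p = 0.0489 and adjusted p = 0.166 in edgeR's test). The antisense gene Gm12406 shares 947 bases with Enho and had 1 read in all. Gpr19, a proposed adropin receptor, had 3.76 ± 0.455 CPM in XCON and 4.7 ± 0.374 CPM in XCKO (SD, n = 3, adjusted p = 0.377).

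Of 17 tested genes for receptors, partners and processing proteases of these hormones, 0 were higher, 1 was lower and 16 did not pass in edgeR's test, with a median log2 fold change of 0.31. The shares over all genes tested were 5.21% higher and 4.05% lower. DESeq2 called 2 of the list each way, and of all 14873 genes 1415 higher and 1238 lower. At an unadjusted p under 0.05 there were 4 of the list higher and 2 lower, a threshold whose share over all genes was not taken. Fgfr2, which encodes a receptor of other fibroblast growth factors, was at 33.8 ± 4.36 CPM in XCON and fell to 13.6 ± 4.31 CPM in XCKO (SD, n = 3; adjusted p = 0.0163, and under 0.05 whichever library was left out). Fgfr2 lost its call in a fit with the replicate number as a block (adjusted p = 0.0565), and the part of other cells in its difference was not tested. Klb, the gene of β-Klotho, had 22.7, 44.6 and 16 CPM in XCON 1, 2 and 3 and 34.2, 44.8 and 40.8 CPM in XCKO 1, 2 and 3 (adjusted p = 0.357). Lpl, the lipase that Angptl4 inhibits, had 310, 377 and 212 CPM in XCON and 192, 98 and 142 CPM in XCKO (adjusted p = 0.0549). These groups did not overlap, as for 35.7% of all genes tested. The macrophage marker sum was likewise highest in XCON 2 (2780 CPM) and lowest in XCKO 2 (502 CPM). What part other cells had in the Lpl difference was not tested. Klb and Lpl were chosen here for their roles.

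The tested transcription factors known to control hepatokine genes gave 2 higher, 3 lower and 25 not passing of 30, with a median of 0.03. Of the 3 lower, 1 was Xbp1 itself, the deleted gene, whose fall was set by the design. Among all genes tested 5.21% were called higher and 4.05% lower. Cebpa, a factor of hepatocyte identity, rose by 1.05 and the nuclear receptor gene Esrra by 1.15 on the log2 scale. Besides Xbp1, the stress factor gene Nfe2l2 fell by 0.77 and the nuclear receptor gene Ppard fell by 1.35. Esrra lost its call without XCON 1, XCON 3 or XCKO 3 (up to 0.066), Cebpa without any library but XCON 2 and XCKO 1 (up to 0.0876), Nfe2l2 without any but XCON 3 (up to 0.101) and Ppard without any but XCON 2 (up to 0.13). Scaled by hepatocyte markers Esrra was at 0.69 (adjusted p = 0.0574), Cebpa at 0.60 (0.0631) and Nfe2l2 at −1.29 (4.68e-05). Ppard also lost its call with median-of-ratios size factors (0.0503), with limma-voom (0.0673), with the length trend removed (0.0681) and with limma on log2(FPKM + 1), where it was at −0.74 (0.0731), and on log2(FPKM + 0.1) (0.0729). Ppara had 68.9 ± 19.1 and 102 ± 18.8 CPM in XCON and XCKO (SD, n = 3, adjusted p = 0.153), and Creb3l3, the gene of the factor CREBH that acts with PPARα on Fgf21, had 317 ± 69.7 and 500 ± 44 CPM (SD, n = 3, adjusted p = 0.0722).

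Other hormones and secreted factors of the liver moved both ways. Of 32 tested, 8 were higher, 4 lower and 20 did not pass, with a median log2 fold change of 0.40. Among all genes tested 5.21% were higher and 4.05% lower. Agt, the gene of angiotensinogen, rose from 664 ± 35.1 to 1450 ± 131 CPM (SD, n = 3), and Serpinb1a, whose product promotes growth of pancreatic beta cells, rose by 1.73 ± 0.29 (SE) on the log2 scale. Agt and Serpinb1a both passed in each fit without 1 library. Eda (1.36), Fgl1 (1.27) and Inhbc (0.68) were also higher, and Inhba (−1.35), Manf (−1.06) and Gpnmb (−1.29) lower. Each of these 6 lost its call without at least 1 library: Eda without XCON 1 (adjusted p = 0.0513), Fgl1 without XCON 2, XCON 3 or XCKO 3 (up to 0.0617), Inhbc without any but XCON 1 and XCKO 2 (up to 0.0618), Inhba without XCON 3 or XCKO 3 (up to 0.0557), Manf without any but XCON 2 (up to 0.086) and Gpnmb without any but XCKO 3 (up to 0.105). Scaled by hepatocyte markers Eda was at 0.91 (adjusted p = 0.0703) and Inhbc at 0.18 (0.638), both without a call, and Agt at 0.64 (0.0333) and Fgl1 at 0.77 (0.0136) with one. With library totals Inhbc was at 0.42 (0.0866). Gpnmb lost its call with the length trend removed (0.0745), and Manf with limma on log2(FPKM + 0.1) (0.0522). Gpnmb is also made by macrophages, whose marker sums are given above.

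**Figure D5:**
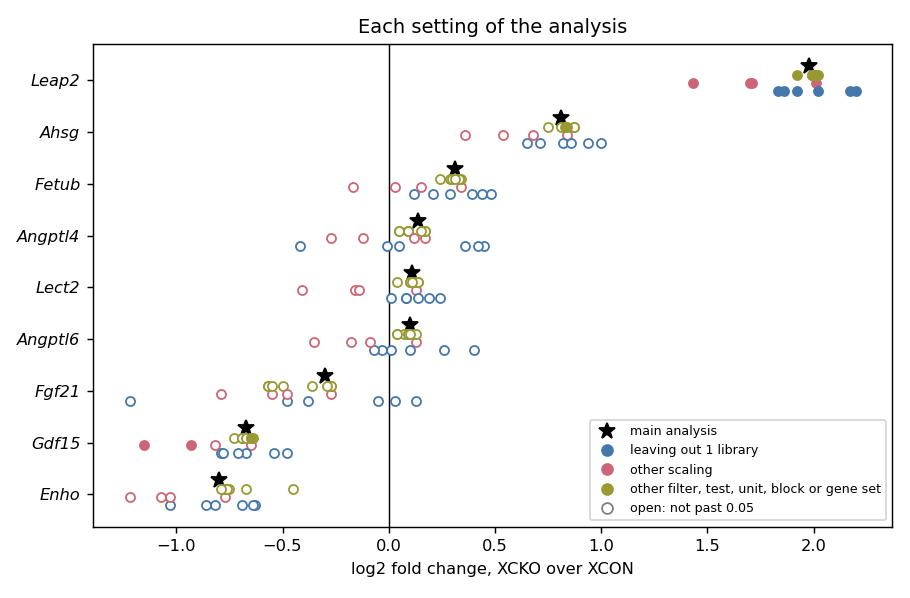
log2 fold changes of the hepatokine transcripts (horizontal axis, XCKO over XCON) in the main analysis (stars) and under 18 alternative settings (circles, 17 for Enho, coloured by kind of setting), filled where the adjusted p is under 0.05. Leap2 is filled under all 18, between 1.43 and 2.20, Ahsg under 2 and Gdf15 under 4, and the other 6 under none.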

How the data were processed

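The authors deposited 1 table for 6 libraries with raw read counts per Ensembl gene, FPKM, group means (a signal equal to counts over size factors), and a comparison with log2 fold changes, p-values and adjusted values whose tool no source used here states. Bowtie 0.12.2, mm8 and mm10 are named in the submitters' processing notes. Of the deposited identifiers, 99.9% are in GENCODE M21 (mm10), 98.3% of these with equal coordinates, so coordinates are on mm10 as deposited. No source used here says if strand was used in counting. Total RNA was extracted with Trizol and made into NEBNext Ultra libraries, per the labels' protocols.

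Counts were filtered by filterByExpr, scaled by TMM and tested by group alone over 6 libraries with edgeR 4.0.16 in R 4.3.3 (robust quasi-likelihood F test), Benjamini-Hochberg over 14873 genes, threshold 0.05. All adjusted p-values are from this test unless another is named. SEs are the absolute log2 fold change over the square root of F, and intervals use the test's t distribution. DESeq2 1.42.0 and limma 3.58.1 served as alternatives, and the fit was checked on simulated data. There it called 45.8% of genes with a true absolute log2 fold change of 1 and 87.4% of those with 2. A gene that did not pass is therefore not shown to be unchanged. Promoter windows are from RefSeq (GRCm38.p6). The deposited gene length in bases was used for the length trend. Replicate libraries differed by far more than counting noise, and since no label names single mice, p-values measure the spread between libraries.

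The members and lists were chosen with earlier results of these data known. All 9 members are named. The windows of Fgf21 and Gdf15 are shown outside the naming rule, which asked for members past the threshold. Of the other lists, up to 5 genes per direction past the threshold are named by smallest p, along with genes named for their role. Some genes counted in these lists are not reported here by name.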

Additional observations from a re-analysis of the deposited data

How the results depend on the processing

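Over all genes, 775 were higher and 603 lower in XCKO (56.2% of calls higher). The counts were 326 and 2032 with library totals alone (13.8% higher, with the median of all genes moved by −0.26), 147 and 3549 with scaling by hepatocyte markers (3.98% higher, an alternative chosen after seeing the data), 1185 and 975 with no filter on low counts, and 1415 and 1238 with DESeq2. limma on log2(FPKM + 1) and log2(FPKM + 0.1) left 335 and 289 lower genes (72.7% and 74.5% higher). With 1 library left out, 178 to 523 genes were higher and 131 to 287 lower, fewest without XCKO 3. Hepatokines called higher were 2 (Leap2 and Ahsg) with no filter and with DESeq2, and 1 was called lower (Gdf15) with those settings, library totals and hepatocyte marker scaling. The cause was not tested.

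The sign of 5 uncalled hepatokines reversed somewhere. With library totals the log2 fold change was −0.16 for Lect2, −0.12 for Angptl4 and −0.18 for Angptl6. With hepatocyte marker scaling it was −0.17 for Fetub, −0.41 for Lect2, −0.27 for Angptl4 and −0.35 for Angptl6, and with the length trend removed −0.14 for Lect2 and −0.09 for Angptl6. Without 1 library Fgf21 ranged from −1.22 to 0.13, Angptl4 from −0.42 to 0.45 and Angptl6 from −0.07 to 0.40. Leap2, the only hepatokine with a call in the main analysis, kept it under all 18 alternative settings. Enho was not tested with the filter of 5 CPM.

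The replicate number was not used to pair libraries, since no label names a shared mouse, litter or day. Deviations of same-numbered libraries from their group means correlated at 0.055, 0.076 and −0.168, and not every library correlated best with its own number. With 3 libraries per group these correlations depend on each other, so they cannot decide on pairing. A fit with the replicate number as a block called 220 genes higher and 102 lower, and among the hepatokines 1 (Leap2, adjusted p = 0.0337). At 34 to 91 counts for Enho, depth limits the precision of a single library.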
